A study of Mus musculus with 9 samples.

Results

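The genes described here are 10 adhesion molecules that do not belong to the cadherin family, Pecam1, Ceacam1, Epcam, Cd44, Icam1, Vcam1, Ncam1, L1cam, Alcam and Mcam, of 19938 genes measured in mouse embryonic stem cells. They were chosen by gene symbol, with the feature of the highest mean over the 9 arrays where a gene has several; each of the 10 had 1 feature, so that mean decided nothing here. The list was drawn up with earlier results of these data known, in which large differences of Pecam1, Cd44 and Ceacam1 had already been given. The differences of those 3 genes are therefore a description, with standard errors and no test, and tests are given for the other 7.

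The study asked what changes in embryonic stem cells that lose β-catenin, the protein that links cadherins to α-catenin and also carries Wnt signals to the nucleus. All cells were on a mixed S129S6-C57BL/6 background and had lost at least 1 allele of β-catenin. The flox cells (β-catenin flox/-), which served as control, kept a second allele that was floxed but present. The null cells had lost both alleles, and the null Eα cells were null cells stably transfected with a construct that fuses E-cadherin to α-catenin, which joins them without β-catenin. Cells were grown on gelatin in serum with leukaemia inhibitory factor and taken before confluence. Each group had 3 arrays, labelled as biological replicates. The labels do not say whether they came from separate lines or from cultures of 1 line, or whether the null Eα cells were 1 clone, so p-values measure only the spread between these samples.

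As background, cells hold to each other and to matrix through several families besides cadherins. Members of the immunoglobulin superfamily bind copies of themselves, other members or integrins on the neighbouring cell. EpCAM is an epithelial and stem cell glycoprotein of another fold, and CD44 binds hyaluronan, a sugar polymer of the matrix. Embryonic stem cells in the naive state are known for PECAM1 on their surface.

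Values are log2 RMA signals, so a difference of 1 is a doubling. A signal covers all probes of a transcript cluster and says nothing about isoforms, protein or where on the cell a protein lies. In a bulk culture, fewer cells that express a gene and less RNA per cell cannot be told apart. Among the 10 genes, differences between groups ran from -4.19 to 3.39 in null against flox cells. Of the 10, 5 were called higher and 3 lower in null than in flox cells (limma, Benjamini-Hochberg adjusted p under 0.05), where 26.5% of all genes were called higher and 28.7% lower, 55.2% in all. In null Eα against flox cells 3 were called higher and 2 lower, against 32.1% and 31.6% of all genes, 63.7% in all. In null Eα against null cells 2 were called higher and 2 lower, against 13.6% and 18.1%, 31.7% in all. The arrays of null and flox cells did not overlap for 8 of the 10 genes and for 67.4% of all genes. For null Eα and flox cells this held for 5 and for 69.5%, and for null Eα and null cells for 4 and for 43.1%. Nothing is read from these counts, since the list was made with results in view. Of the 7 genes with a test, 4 were called higher and 1 lower in null against flox cells, 2 higher and 0 lower in null Eα against flox cells, and 1 higher and 2 lower in null Eα against null cells. Both comparisons with flox share the flox arrays, and both that involve null cells share the null arrays.

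**Figure D1:**
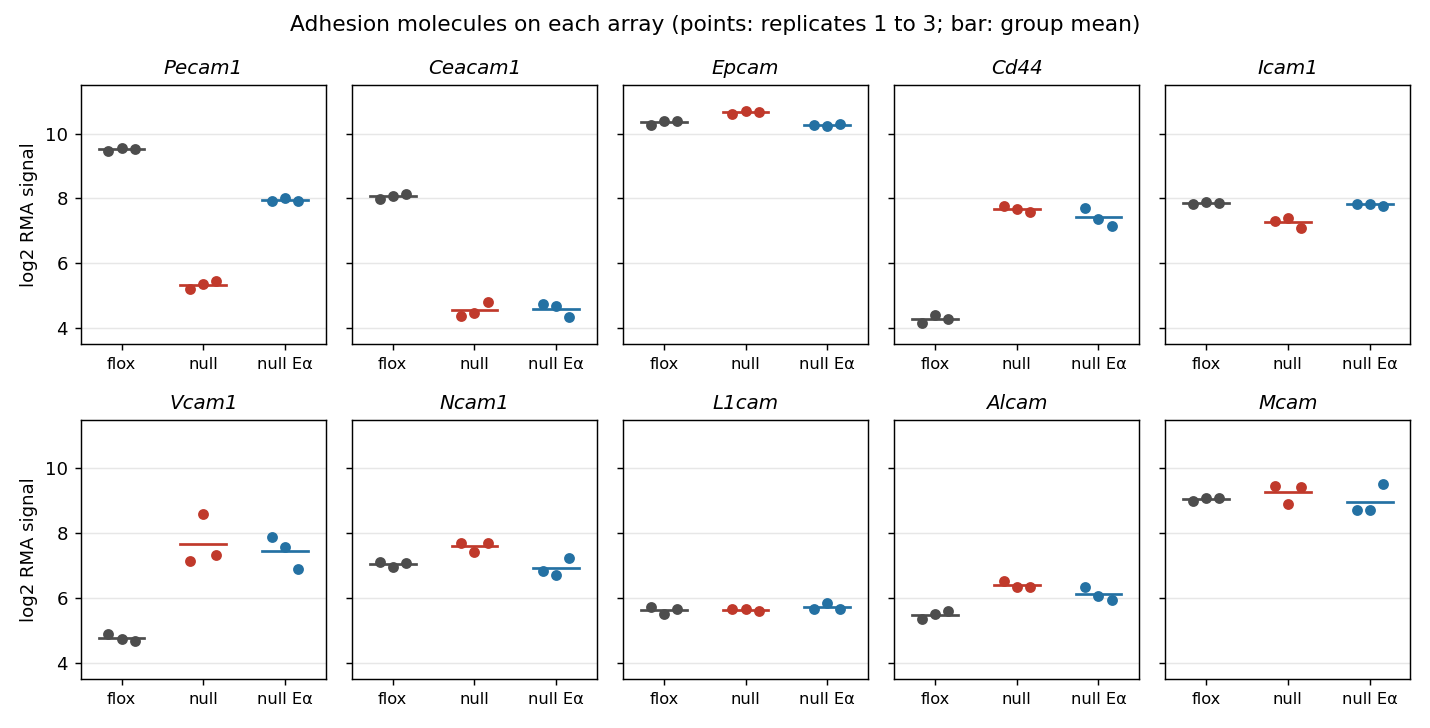
Log2 RMA signal (vertical axis) of the 10 adhesion molecules in the flox, null and null Eα groups (horizontal axis); points are the 3 arrays of a group in the order of replicates 1 to 3 and the bar is their mean. Pecam1 lies at 9.52 in flox, 5.33 in null and 7.95 in null Eα cells, Ceacam1 is low in both lines without β-catenin, and Cd44 and Vcam1 are high in both.

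The median difference over the 10 genes was 0.26 in null against flox cells, -0.06 in null Eα against flox cells and -0.24 in null Eα against null cells. The medians over all genes were 0.06, 0.07 and 0.05. The size of the difference regardless of sign had a median of 0.76, 0.37 and 0.29 over the 10 genes, against 0.32, 0.37 and 0.20 over all genes.

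Pecam1 encodes PECAM1 (CD31), an immunoglobulin-superfamily molecule that binds itself and carries inhibitory tyrosine motifs (ITIMs) in its tail. Its values were 9.46, 9.56 and 9.53 on the flox arrays, 5.20, 5.35 and 5.44 on the null arrays, and 7.91, 8.02 and 7.91 on the null Eα arrays (transcript cluster 10392221, chromosome 11). The groups did not overlap, with null Eα cells between the others. Pecam1 lay 4.19 ± 0.08 log2 units (limma standard error, n = 3 arrays per group), or 18.2-fold, lower in null than in flox cells. In null Eα cells it lay 2.62 ± 0.08 above the null level, or 6.13-fold higher. Against flox it still differed by -1.57 ± 0.08, 2.97-fold lower. The rise from null to null Eα equalled 62.5% of the difference between null and flox. The brighter genes of chromosome 11 as a group differed by -0.63 between null Eα and flox cells, and by -0.33 relative to brighter genes of all chromosomes. With each chromosome centred on its own brighter genes, which takes out the first shift, Pecam1 in null Eα against flox cells was at -0.95; with the second taken out it was at -1.24.

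Ceacam1 encodes CEACAM1, a carcinoembryonic-antigen-related molecule that also binds itself and has ITIM-bearing forms. Its values were 7.99, 8.07 and 8.12 on the flox arrays, 4.37, 4.47 and 4.80 on the null arrays, and 4.73, 4.67 and 4.34 on the null Eα arrays (transcript cluster 10561008, chromosome 7). Both lines without β-catenin lay far below flox and overlapped each other. The differences from flox were -3.51 ± 0.13 in null and -3.48 ± 0.13 in null Eα cells, 11.4-fold and 11.2-fold lower. Null Eα and null cells differed by 0.03 ± 0.13, which is smaller than its error. The lower quartile of all features was 4.52 to 4.55 for null and 4.56 to 4.63 for null Eα samples, so Ceacam1 sat at the dim end of the scale in both lines.

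Ceacam1 has close relatives on the same chromosome, and Ceacam2 is so similar that their signals may not be fully separate. Ceacam2 fell by 0.93 in null and by 1.43 in null Eα cells, and Ceacam10 fell by 1.76 and fell by 1.33 (these relatives were named after their values were seen). The relatives thus differed from flox in the direction of Ceacam1, by less.

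The 250 bases before the RefSeq start of Ceacam1 (GRCm38.p6, chr7:25477626-25477875, minus strand) and of Cd44 (GRCm38.p6, chr2:102901666-102901915, minus strand) are shown because these genes had the largest difference in each direction among those with a promoter entry. Entries were found for 7 of the 10 genes. Capitals mark CpG pairs, the sites of DNA methylation, which was not measured here.
Ceacam1: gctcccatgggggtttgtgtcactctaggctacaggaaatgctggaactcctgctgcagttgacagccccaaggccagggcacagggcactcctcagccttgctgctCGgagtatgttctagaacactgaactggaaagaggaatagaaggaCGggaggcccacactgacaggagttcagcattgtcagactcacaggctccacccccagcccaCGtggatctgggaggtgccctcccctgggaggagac
Cd44: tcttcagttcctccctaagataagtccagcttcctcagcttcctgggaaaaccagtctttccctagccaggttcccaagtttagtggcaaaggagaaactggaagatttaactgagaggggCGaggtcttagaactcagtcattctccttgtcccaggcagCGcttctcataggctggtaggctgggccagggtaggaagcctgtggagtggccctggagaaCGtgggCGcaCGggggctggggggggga

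The Ceacam1 window held 3 CpG pairs and the Cd44 window 5, an observed-over-expected ratio of 0.139 and 0.257. The median over 32851 promoter windows of this length was 0.373. The windows of Mcam and Alcam held 25 and 22 CpG pairs (ratios of 0.739 and 0.742). The TCF/LEF words (CTTTGAA or CTTTGAT, or else CTTTGTA or CTTTGTT), the kind of site that β-catenin reaches through TCF proteins, were searched on both strands. They occurred in 14.8% of all windows and in 0 of the 8 windows of the 7 genes. This says only that these letters are not in these bases.

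Cd44 encodes CD44, the main surface receptor for hyaluronan. Its values were 4.17, 4.40 and 4.27 on the flox arrays, 7.76, 7.67 and 7.59 on the null arrays, and 7.72, 7.38 and 7.16 on the null Eα arrays (transcript cluster 10485405, chromosome 2). Every array without β-catenin lay above every flox array, and the null and null Eα arrays overlapped. The difference from flox was 3.39 ± 0.13 in null and 3.14 ± 0.13 in null Eα cells, 10.5-fold and 8.80-fold higher. In flox cells Cd44 was dim, at a mean of 4.28 where the lower quartile of features was 4.37 to 4.40. Null Eα and null cells differed by -0.25 ± 0.13, and by -0.40 without null Eα replicate 1, the highest of its group.

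Genes of hyaluronan and partners of CD44, among them linkers to actin, splicing factors and proteases, were counted as 1 list. Of 15 measured genes 6 rose and 3 fell in null against flox cells, with a median of -0.00, and 5 rose and 2 fell in null Eα against flox cells (9 and 0 with each chromosome centred). For this and the lists below, the shares of all genes given above are the background, and no list was tested against it. Has2, the synthase that makes long hyaluronan, rose by 4.82 ± 0.26 in the null line (limma adjusted p = 1.26e-07) and by 4.15 ± 0.26 in the null Eα line (adjusted p = 5.27e-07). The other synthases Has1 and Has3 differed by -0.00 and -0.12 in null cells, neither called. Of the linkers that tie the CD44 tail to actin, Msn (moesin) rose by 1.60 ± 0.09 and Rdx (radixin) by 0.49 ± 0.10, while Ezr (ezrin) fell by 0.59 ± 0.08 in null cells (adjusted p = 1.45e-07, 0.00169 and 1.04e-04). Ezr was back up by 0.47 ± 0.08 in null Eα against null cells (adjusted p = 0.00149), and Msn down by 0.93 ± 0.09 (adjusted p = 4.18e-05). Rbm47, an RNA-binding protein linked to splicing, fell by 3.02 in null cells and rose by 3.17 from null to null Eα. Mmp14, a membrane protease that can cut CD44, rose by 2.61 in null and by 1.73 in null Eα cells (Rbm47 and Mmp14 were named after their values were seen). Esrp1, an epithelial splicing factor that favours the variant exons of CD44, rose by 0.38 ± 0.10 in null cells (adjusted p = 0.00632), and Esrp2 differed by -0.05 ± 0.12 (adjusted p = 0.746), a value that turned to a called rise with each chromosome centred (0.50, adjusted p = 0.00539) and with each centred on all brighter genes (0.34, adjusted p = 0.0277). Exon use of Cd44 cannot be read from 1 value per transcript cluster.

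Icam1 and Vcam1 encode ligands for integrins, best known from the endothelium, where inflammatory signals through NF-κB raise both. Here they moved in opposite directions. Icam1 had values of 7.83, 7.88 and 7.85 on the flox arrays, 7.30, 7.39 and 7.09 on the null arrays, and 7.84, 7.82 and 7.77 on the null Eα arrays (transcript cluster 10583519, chromosome 9). The null arrays lay below all others, and the flox and null Eα arrays overlapped. Icam1 fell by 0.59 ± 0.08 in null against flox cells (limma adjusted p = 1.52e-04), 1.51-fold, and rose by 0.55 ± 0.08 in null Eα against null cells (adjusted p = 8.54e-04). Null Eα differed from flox by -0.04 ± 0.08 (adjusted p = 0.659), a difference that was positive after quantile normalization (0.24).

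Vcam1 had values of 4.90, 4.73 and 4.68 on the flox arrays, 7.13, 8.58 and 7.32 on the null arrays, and 7.88, 7.56 and 6.88 on the null Eα arrays (transcript cluster 10501608, chromosome 3). Every array without β-catenin lay above every flox array, with null replicate 2 the highest. Vcam1 rose by 2.90 ± 0.35 in null cells (adjusted p = 4.58e-05) and by 2.67 ± 0.35 in the null Eα line (adjusted p = 9.71e-05), 7.49-fold and 6.37-fold. Without null replicate 2 the null difference was 2.45. Null Eα and null cells differed by -0.23 ± 0.35 (adjusted p = 0.637), and by 0.22 without null replicate 2, so their order rests on that array.

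The promoter window of Icam1 (GRCm38.p6, chr9:21015690-21015939, plus strand) is shown because it holds an NF-κB word, GGAAATTCC, in capitals.
Icam1: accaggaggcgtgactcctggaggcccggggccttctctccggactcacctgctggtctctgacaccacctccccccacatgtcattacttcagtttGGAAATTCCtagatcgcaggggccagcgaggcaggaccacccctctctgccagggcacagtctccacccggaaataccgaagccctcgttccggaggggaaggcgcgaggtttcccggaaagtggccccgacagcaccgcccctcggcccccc

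The word lay from 153 to 145 bases before the RefSeq start, on the gene's strand. It was searched on both strands, and this exact word occurred in 0.286% of all windows. No other form of NF-κB site was searched, so that share does not tell how many windows hold such a site. Nor does it tell how unusual the hit in Icam1 is, since the word was not picked without regard to Icam1 by any stated rule. The hit is a match of letters, and binding was not measured. No window for Vcam1 was among the sequences used.

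Genes of the NF-κB and cytokine inputs were mixed. Of 9 measured genes 6 rose and 2 fell in null cells, with a median of 0.80, and 1 rose and 6 fell in null Eα against null cells. Rela, an NF-κB subunit, fell by 0.70 ± 0.08 and Nfkbia, which holds NF-κB in the cytoplasm and is itself an NF-κB target, by 1.11 ± 0.10 in null cells (adjusted p = 2.77e-05 and 4.53e-06). Of the other subunits measured, Nfkb2 rose by 0.80 in null cells and Relb, not called, differed by 0.06 (named after their values were seen). Tnfaip3, a feedback inhibitor of the pathway, rose by 1.09 ± 0.06 (adjusted p = 2.09e-07). Tnfrsf1a, a TNF receptor, Irf1, an interferon-response factor, and Ifngr1, an interferon-γ receptor chain, rose by 1.22, 1.40 and 1.31 (named after their values were seen).

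The integrins that bind these ligands also went separate ways. Of 10 integrin subunits 5 rose and 4 fell in null cells. Itga4 and Itgb1, which form a VCAM1 receptor, rose by 1.64 ± 0.25 and 1.94 ± 0.12 in null cells (adjusted p = 2.36e-04 and 3.53e-07). In the null Eα line they rose by 0.94 ± 0.25 and 1.16 ± 0.12 (adjusted p = 0.00751 and 1.85e-05). Itga9 and Itgb7, listed for the same ligands, went the other way, at -1.78 and -1.35 against flox in null cells (named after their values were seen). The rise of Itga4 and Itgb1 thus did not extend to all integrin subunits listed for these ligands. In null Eα cells Itga9 and Itgb7 were at -0.87 and -0.54 against flox. Itgal, the α chain of the leukocyte ICAM1 receptor, fell by 1.30 ± 0.09 in null and by 0.90 ± 0.09 in the null Eα line (adjusted p = 5.86e-07 and 1.09e-05). Its partner Itgb2 differed by 0.30 ± 0.14 in null cells (adjusted p = 0.0946). Itgb2 and Itgam, the other α chain that binds ICAM1, were dim, at group means of 4.55 to 5.01 and 3.86 to 4.33.

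**Figure D2:**
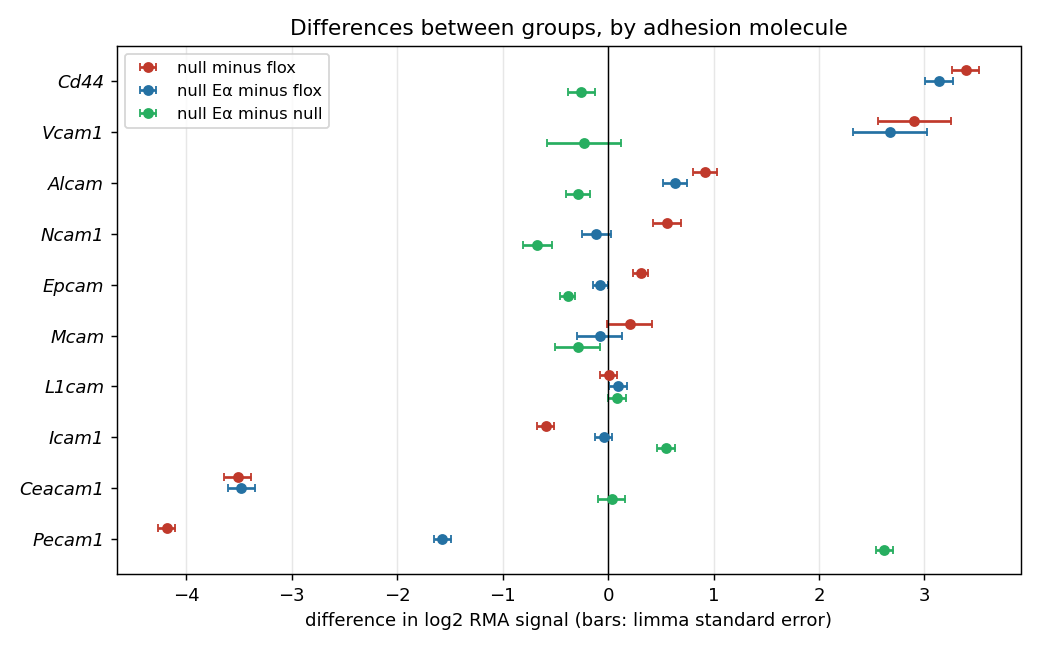
Difference in log2 RMA signal (horizontal axis) for the 10 adhesion molecules (vertical axis, ordered by null minus flox) in each of the 3 comparisons; points are estimates and bars limma standard errors. Pecam1 is the only one of the 10 whose null Eα minus null difference (2.62) exceeds 1; Ceacam1, Cd44 and Vcam1 have null and null Eα points side by side.

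Ncam1 and L1cam encode neural adhesion molecules that bind themselves and each other's relatives and signal in part through FGF receptors. Ncam1 had values of 7.10, 6.96 and 7.06 on the flox arrays, 7.70, 7.41 and 7.69 on the null arrays, and 6.83, 6.71 and 7.24 on the null Eα arrays (transcript cluster 10593293, chromosome 9). The null arrays lay above all others, and the flox and null Eα arrays overlapped. Ncam1 rose by 0.56 ± 0.13 in null against flox cells (limma adjusted p = 0.00506) and fell by 0.67 ± 0.13 in null Eα against null cells (adjusted p = 0.00398). Null Eα differed from flox by -0.11 ± 0.13 (adjusted p = 0.477). Without null Eα replicate 3, the highest of its group, that difference was -0.27 and was called (adjusted p = 0.0429).

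L1cam had values of 5.73, 5.51 and 5.67 on the flox arrays, 5.67, 5.67 and 5.58 on the null arrays, and 5.67, 5.84 and 5.67 on the null Eα arrays (transcript cluster 10605113, chromosome X). The groups overlapped, and 4 arrays held exactly the same value. The differences were 0.00 ± 0.08 in null and 0.09 ± 0.08 in the null Eα line (adjusted p = 0.970 and 0.354), and 0.09 ± 0.08 between null Eα and null (adjusted p = 0.452). With each chromosome centred both null Eα differences were called, at 0.34 against flox (adjusted p = 0.0136) and 0.32 against null (adjusted p = 0.0337); against flox the value was -0.045 after quantile normalization. Equal values can arise in the summary step of RMA and can make the spread look small. L1cam lay below the median of all features in each group, and whether it was above background was not measured.

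Partners of the neural molecules were counted in the same way. Of 13 measured genes 10 rose and 1 fell in null against flox cells, with a median of 0.74, where 26.5% of all genes rose and 28.7% fell. In null Eα against null cells 0 rose and 10 fell, where 13.6% of all genes rose and 18.1% fell. Over the alternatives the 10 that rose ran from 5 to 10, and the 10 that fell from 6 to 10. St8sia2 and St8sia4, the enzymes that put polysialic acid on NCAM1 and so loosen its hold, rose by 1.48 ± 0.20 and 1.10 ± 0.09 in null cells (adjusted p = 1.06e-04 and 3.62e-06). St8sia4 fell again by 0.98 ± 0.09 from null to null Eα (adjusted p = 4.87e-05). Fgfr1, an FGF receptor that NCAM1 and L1CAM can engage, was at -0.44 ± 0.12 in null cells (adjusted p = 0.00858). It lies on chromosome 8, whose brighter genes differed by -0.55 between null and flox cells, and by -0.39 relative to those of all chromosomes. With the first shift taken out Fgfr1 was at 0.11 (adjusted p = 0.393) and with the second at -0.055 (adjusted p = 0.716), so neither centring kept the call. Gap43, a growth cone protein downstream of NCAM1, Gfra1, which forms a GDNF receptor with NCAM1, and Nrp1 and Sema3a, a receptor and ligand that act with L1CAM, rose by 2.68, 2.69, 2.09 and 2.36 (these were named after their values were seen).

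Markers of neurons went the other way in null cells. Of 10 neuron markers 1, Dcx (0.46), rose and 7 fell, and their summed signal (log2) was 11.90 to 12.01 for flox, 9.83 to 10.31 for null and 11.05 to 11.34 for null Eα samples. Stmn2, a neuronal microtubule regulator and the brightest of them in flox cells at a mean of 11.40, fell by 3.30 in null cells. It rose by 2.33 from null to null Eα. The sum adds signals before the log, so bright genes such as Stmn2 weigh most in it. In null Eα against null cells 2 of the 10 markers rose and 0 fell, with a median of 0.15.

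Alcam encodes ALCAM (CD166), which binds itself and the lymphocyte receptor CD6. It had values of 5.35, 5.50 and 5.59 on the flox arrays, 6.53, 6.33 and 6.34 on the null arrays, and 6.35, 6.07 and 5.92 on the null Eα arrays (transcript cluster 10439895, chromosome 16). Every array without β-catenin lay above every flox array, and the null and null Eα arrays overlapped. Alcam rose by 0.92 ± 0.12 in null and by 0.63 ± 0.12 in null Eα cells (limma adjusted p = 6.40e-05 and 9.34e-04), 1.89-fold and 1.55-fold. Null Eα and null cells differed by -0.29 ± 0.12 (adjusted p = 0.0849), a difference called without null Eα replicate 1 (-0.41, adjusted p = 0.0209) and with each array centred on its median. It was also called with each chromosome centred on all brighter genes (-0.37, adjusted p = 0.0304).

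Mcam encodes MCAM (CD146), a molecule of endothelial and mural cells. It had values of 9.01, 9.09 and 9.07 on the flox arrays, 9.45, 8.90 and 9.44 on the null arrays, and 8.70, 8.71 and 9.51 on the null Eα arrays (transcript cluster 10584674, chromosome 9). The groups overlapped, and single arrays set the spread: null replicate 2 lay below the flox arrays and null Eα replicate 3 above them. The differences from flox were 0.21 ± 0.21 in null and -0.08 ± 0.21 in the null Eα line (adjusted p = 0.434 and 0.748). Without null Eα replicate 3, Mcam in null Eα against null cells went from -0.29 ± 0.21 (adjusted p = 0.326) to -0.55 and was called (adjusted p = 0.0163).

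Epcam encodes EpCAM, a glycoprotein of epithelia that undifferentiated embryonic stem cells also carry. It had values of 10.25, 10.40 and 10.38 on the flox arrays, 10.60, 10.70 and 10.66 on the null arrays, and 10.27, 10.23 and 10.30 on the null Eα arrays (transcript cluster 10447383, chromosome 17). The null arrays lay above all others, by little, and the flox and null Eα arrays overlapped. Epcam rose by 0.31 ± 0.07 in null cells (adjusted p = 0.00378), 1.24-fold, and fell by 0.38 ± 0.07 in null Eα against null cells (adjusted p = 0.00253). Null Eα differed from flox by -0.07 ± 0.07 (adjusted p = 0.372). With each chromosome centred the rise in null cells was 0.53, and null Eα against flox turned to a called 0.20 (adjusted p = 0.0268).

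Of 10 measured partners and proteases of EpCAM, 5 rose and 2 fell in null cells, and 1 rose and 7 fell in null Eα against null cells (3 to 8 fell over the alternatives). Cldn7, a claudin that binds EpCAM, rose by 1.27 ± 0.23 in null cells (adjusted p = 9.80e-04) and fell by 1.28 ± 0.23 in null Eα against null cells (adjusted p = 0.00242). It lies on chromosome 11, as does Pecam1. Over the alternatives its null Eα against null difference ran from -1.51 to -0.85 and was called under each. Spint1, an inhibitor of matriptase, which cuts EpCAM, fell by 0.51 ± 0.09 in null cells (adjusted p = 7.24e-04), and St14, matriptase itself, differed by 0.21 ± 0.15 (adjusted p = 0.262). Adam10, a sheddase of several adhesion molecules, rose by 0.38 ± 0.08 in null cells (adjusted p = 0.00299), and Adam17, another, differed by -0.04 ± 0.07 (adjusted p = 0.674).

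**Figure D3:**
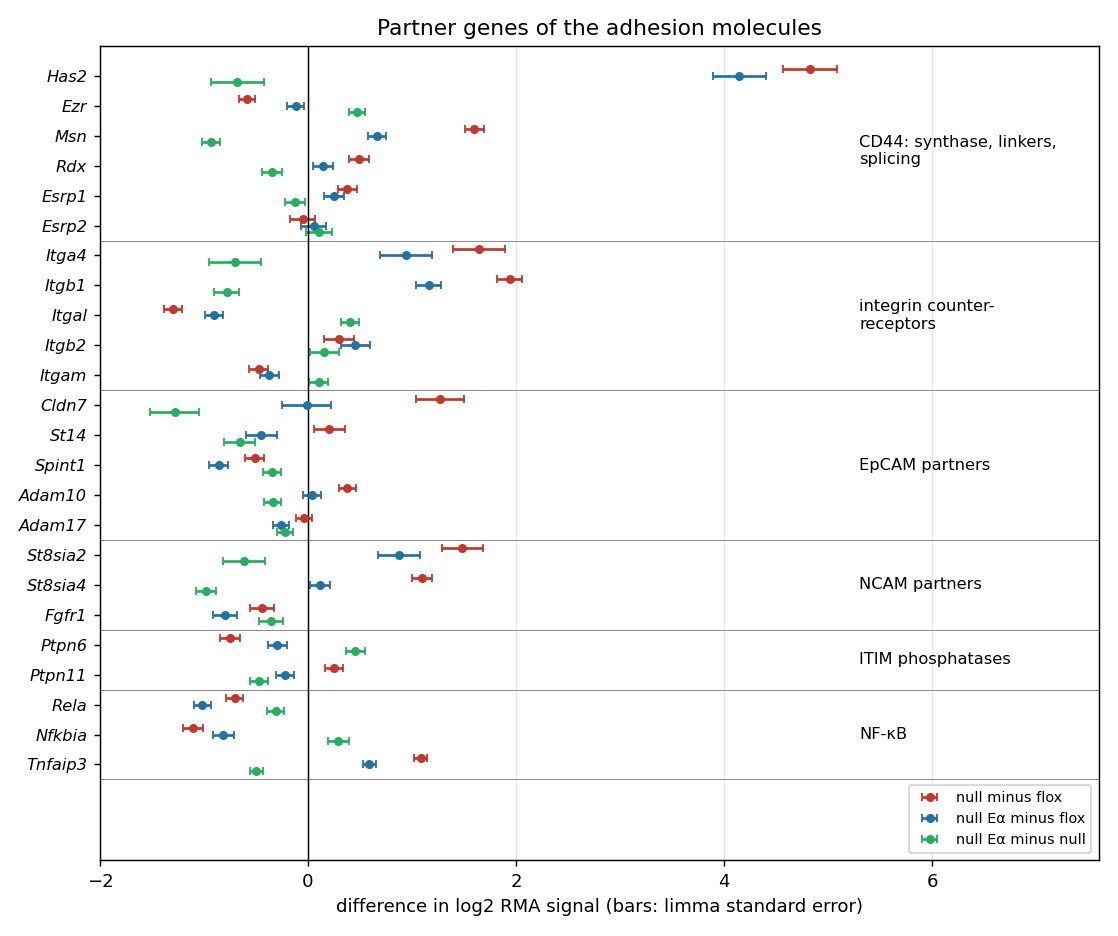
Difference in log2 RMA signal (horizontal axis) of partner genes of the adhesion molecules (vertical axis, grouped by the molecule they act on) in the 3 comparisons; points are estimates and bars limma standard errors. Has2 stands at 4.82 for null minus flox and 4.15 for null Eα minus flox, Itgb1 and Itga4 lie right of 0 and Itgal left of 0 in both.

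PECAM1 and CEACAM1 recruit phosphatases through their ITIMs. Of 7 measured genes listed with ITIM signalling, not all of them phosphatases, 2 rose and 3 fell in null cells. Besides the phosphatases below, Pik3r1 fell by 0.66 and Cd177 rose by 0.50, and Src and Fyn were not called (named after their values were seen). Ptpn6, which encodes the phosphatase SHP-1, fell by 0.75 ± 0.09 in null cells (limma adjusted p = 5.61e-05) and rose by 0.46 ± 0.09 in null Eα against null cells (adjusted p = 0.00431). Ptpn11, which encodes SHP-2, was at 0.25 ± 0.09 in null cells (adjusted p = 0.0306), a call lost when any 1 flox or null array was left out (0.24 to 0.27). Inpp5d, the inositol phosphatase SHIP1, fell by 3.40 in null cells and rose by 1.87 in null Eα against null cells (named after its values were seen).

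For the 4 genes whose group means spanned at least 1 log2 unit, the named genes with the closest pattern over the 9 arrays were sought among 3723 genes with a like span. The patterns most like Pecam1 were those of Tesk2 and Fgf4 (Pearson r = 0.9993 and 0.9987), and most like Ceacam1 those of Cmc2 and St8sia6 (0.9987 and 0.9983). Most like Cd44 were Ptgs2 and Inhba (0.9985 and 0.9969), and most like Vcam1 were Twist2 and Frzb (0.9977 and 0.9945). With 9 arrays in 3 groups such values mostly restate the group means, and they are given as a description. Twist2 stood at 8.01, 8.87 and 8.04 on null replicates 1 to 3. It was picked for its r with Vcam1 over these same arrays, so its match with Vcam1 within the null group adds no support.

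Fibroblast markers, among them Twist2, were also higher in both lines in which Cd44, Vcam1 and Alcam were higher than in flox cells. Of 14 such markers 12 rose and 0 fell against flox in each line, where 26.5% of all genes rose in null and 32.1% in null Eα cells. In null Eα against null cells 0 of the 14 rose and 7 fell, with a median of -0.69, a comparison in which Vcam1 and Alcam were not called and Cd44 stood at -0.25. Their summed signal (log2) was 9.49 to 9.69 for flox, 12.92 to 13.21 for null and 11.90 to 12.26 for null Eα samples. Null replicate 2, the highest for Vcam1, was highest here too, but Cd44 and Alcam were highest on null replicate 1 (7.76 and 6.53). From null Eα replicate 2 to 3 Vcam1 went from 7.56 to 6.88, while the marker sum went from 11.90 to 11.97. Thy1, itself an immunoglobulin-superfamily molecule on that list, rose by 1.13 in null and by 0.87 in null Eα cells. The part of these markers in the results for Cd44, Vcam1 and Alcam was not tested.

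**Figure D4:**
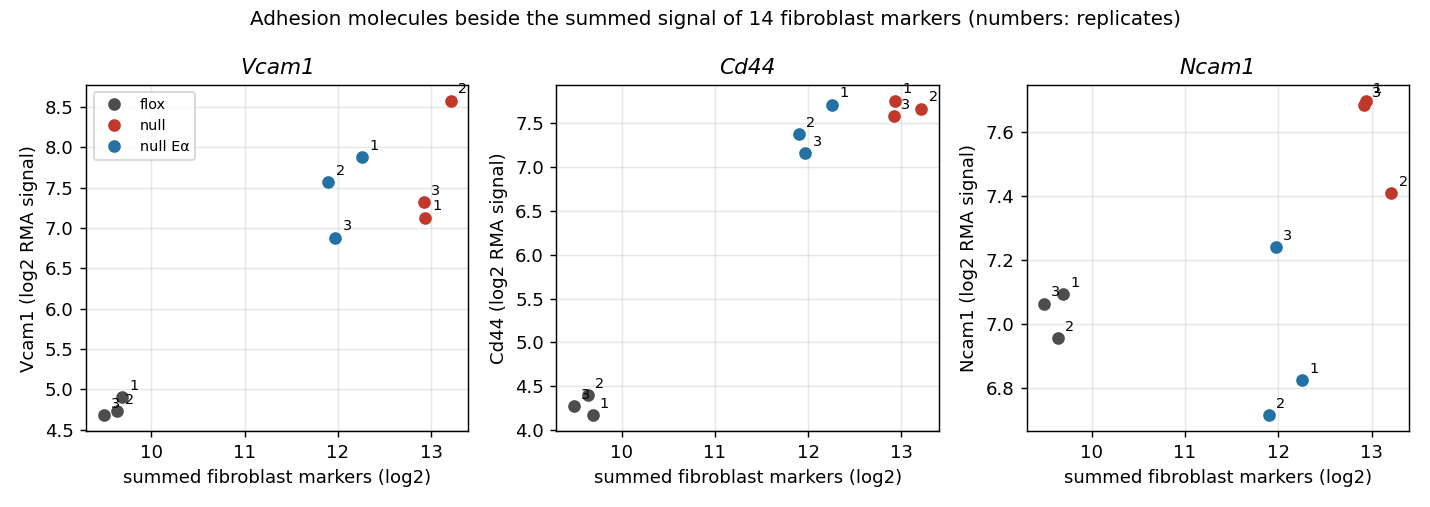
Log2 RMA signal of Vcam1, Cd44 and Ncam1 (vertical axes) against the summed signal of 14 fibroblast markers (horizontal axes, log2); each point is an array, coloured by group and numbered by replicate. For Vcam1 and Cd44 the flox arrays sit apart at the lower left, and null replicate 2 is highest in both Vcam1 and the marker sum. Cd44 is highest on null replicate 1.

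Endothelial and blood markers were checked because Pecam1, Icam1, Vcam1 and Mcam are known from those cells. Of 14 endothelial markers 2 rose and 6 fell in null cells (6 and 5 with each chromosome centred), with a summed signal (log2) of 10.23 to 10.28 for flox, 9.90 to 9.98 for null and 10.03 to 10.06 for null Eα samples. Cdh5, the endothelial cadherin, had group means of 4.87, 5.02 and 5.14, below the median of all features. Tek, an angiopoietin receptor, fell by 1.99 in null cells, and Flt1, a VEGF receptor, rose by 2.06. Of 10 blood cell markers 1 rose and 3 fell in null cells (3 and 0 with each chromosome centred), and Ptprc (CD45) had group means of 4.29, 4.45 and 4.60.

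In the wider immunoglobulin superfamily calls went in both directions. Of 28 measured members outside the 10 (Ceacam2, Ceacam10 and Thy1 among them), 7 rose and 8 fell in null cells, 10 rose and 12 fell from flox to null Eα, and 5 rose and 8 fell in null Eα against null cells. With each chromosome centred these counts were 14 and 7, 13 and 8, and 7 and 8. F11r (JAM-A), a tight-junction molecule, was at 0.38 ± 0.10 in null cells (limma adjusted p = 0.00994), not called with each chromosome centred on all brighter genes (0.24), and fell by 0.52 ± 0.10 in null Eα against null cells (adjusted p = 0.00395). Bcam, a laminin receptor, differed by 0.20 ± 0.17 in null cells (adjusted p = 0.349) and fell by 0.89 ± 0.17 in null Eα against null cells (adjusted p = 0.00327). Jam2, a relative of F11r, had the widest swing, with group means of 10.71 in flox, 5.56 in null and 9.19 in null Eα cells (named after its values were seen). It fell by 5.14 in null cells and rose by 3.63 from null to null Eα, the order of groups seen for Pecam1.

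As to the series as a whole, Ctnnb1, the deleted gene, lay 0.65 ± 0.07 lower in null and 0.93 ± 0.07 lower in null Eα than in flox cells, and its probes may lie outside the deleted part. Of 12 embryonic stem cell markers 10 fell and 2 rose in null cells, and their summed signal (log2) was 14.82 to 14.84 for flox, 13.37 to 13.58 for null and 14.57 to 14.61 for null Eα samples. Genotype and cell line cannot be told apart in this design. The split of all calls moved with the centring. It was 5285 higher and 5719 lower in null against flox cells, but 8938 and 4690 with each chromosome centred. For null Eα against flox it was 6399 and 6295, but 11238 and 4071 with each chromosome centred and 4674 and 6987 with each array centred on its median. For null Eα against null it was 2721 and 3609, but 6057 and 2587 with each chromosome centred. That centring raised the median of all genes to 0.21, 0.33 and 0.16 in the 3 comparisons. Each of the 10 called differences among the 7 adhesion molecules with a test kept its direction and its call under these settings.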

How the data were processed

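The deposited table held log2 values from RMA, made by the authors from Affymetrix whole-transcript arrays, per the submitters' processing notes (no version given). The genome build was not given in the sources used here. It listed 35556 features on 9 arrays, from 2.02 to 13.92. Exactly equal values on arrays of different groups occurred in 21.7% of features, which fits arrays summarised together; the labels do not say. Values were used as deposited.

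Of 21789 features with 1 gene symbol, the brightest per gene was kept, giving 19938 genes. The model was limma 3.58.1 under R 4.3.3 (all 9 arrays, a mean per group, 6 residual and 4.04 prior degrees of freedom). Benjamini-Hochberg adjustment was over all genes, with a threshold of 0.05. The fit was also run on simulated data that gave every group the spread of the flox arrays. Arrays correlated at 0.995 to 0.997 within flox, 0.991 to 0.992 within null and 0.986 to 0.99 within null Eα. That run therefore does not check the p-values for the wider spread of the other groups. The members and gene lists were chosen with earlier results of these data known. The lists named 183 genes, of which 168 were measured; unmatched ones, such as Spp1 and Nfkb1, were not analysed here. Named were the 10 molecules, a set of partner genes whatever their values, and the 2 closest patterns per gene; any other gene was named after its values were seen. Promoter windows came from RefSeq (GRCm38.p6), where 7 of 10 genes matched. Alternatives were 3 kinds of scaling, a filter, other features, fits and priors, a replicate block and leaving out each array. Figures used matplotlib 3.10.9 in Python 3.11.15. Precision was limited by 3 arrays per group; detection calls and scan dates were not used here.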

Additional observations from a re-analysis of the deposited data

How the results depend on the processing

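The 10 called differences among the 7 adhesion molecules with a test kept their direction and call under each of the 18 alternatives in which the gene was tested. Of the 18, 1, each chromosome centred on all brighter genes, was chosen after seeing the data. Pecam1, Ceacam1 and Cd44, known beforehand to differ, are not counted as support. With each chromosome centred 7 of the 10 molecules were called in null Eα against flox cells, where 5 were otherwise, Epcam and L1cam being added. Of 139 called differences of the other genes examined singly, 108 did so and 31 were lost or turned under at least 1 alternative. With genes dimmer than the median feature left out, 8033 genes (12694 with them) and 3 adhesion molecules (5 with them) were called in null Eα against flox cells, since fewer genes were tested. Leaving out each array in turn gave 9535 to 11652 genes called in null against flox, 10783 to 13041 in null Eα against flox and 4726 to 7859 in null Eα against null cells, and 8 to 8, 5 to 6 and 4 to 6 adhesion molecules.

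With the replicate number as a block, 11298, 12935 and 6602 genes and 8, 5 and 4 adhesion molecules were called. Without it 11004, 12694 and 6330 genes were called. Same-numbered arrays of different groups had deviations that correlated from -0.0349 to 0.258 (9 pairs), other arrays from -0.196 to 0.142 (18 pairs). The ranges overlapped, but that of same-numbered arrays lay higher, so an effect shared by replicate number cannot be set aside. The labels name no pairing, and the main fit did not use the numbers.

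The values that changed sign were these, and the cause was not tested. In null against flox cells, quantile normalization gave L1cam -0.060, Esrp2 0.056 and Adam17 0.16. Each chromosome centred gave Esrp2 0.50, Adam17 0.033 and Fgfr1 0.11; on all brighter genes it gave L1cam -0.14 and Esrp2 0.34. Each array centred on its median gave L1cam -0.031.

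In null Eα against flox cells, quantile normalization gave Epcam 0.16, Icam1 0.24, Ncam1 0.015, L1cam -0.045, Mcam 0.24, Ezr 0.16, Cldn7 0.23, Adam17 0.048, St8sia4 -0.10, Ptpn11 0.11 and F11r 0.18. Each chromosome centred gave Epcam 0.20, Icam1 0.15, Ncam1 0.086, Mcam 0.12, Ezr 0.16, Cldn7 0.62, Ptpn6 0.32 and Irf1 0.32; on all brighter genes it gave Cldn7 0.32, Adam10 -0.059, St8sia4 -0.059, Ptpn6 0.021, Irf1 0.022 and Ifngr1 -0.033. Each array centred on its median gave Esrp2 -0.028, Adam10 -0.044 and Ifngr1 -0.070. In null Eα against null cells, Ceacam1 was -0.033 after quantile normalization, -0.012 with median centring and -0.043 with each chromosome centred on all brighter genes. Bsg was 0.00015 after quantile normalization, and Dcx 0.19 and 0.051 under the centrings by chromosome.

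Leaving out 1 array turned the sign of some differences near 0. In null against flox cells L1cam ran from -0.060 to 0.052 and Esrp2 from -0.15 to 0.015. Between null Eα and flox cells the ranges were -0.35 to 0.054 for Mcam, -0.27 to 0.25 for Ifngr1, -0.19 to 0.25 for Cldn7, -0.053 to 0.18 for Esrp2, -0.060 to 0.38 for Rbm47, -0.018 to 0.11 for Adam10 and -0.082 to 0.21 for Cxadr. Between null Eα and null cells they were -0.053 to 0.16 for Ceacam1, -0.51 to 0.22 for Vcam1, -0.43 to 0.039 for Twist2, -0.0023 to 0.23 for Esrp2 and -0.023 to 0.29 for Itgb2. The number of arrays, 3 per group, limits the precision.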

Other observations

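Selectin ligands, sialomucins and tetraspanins are a group of surface glycoproteins not described above. Of 14 measured genes 0 rose and 6 fell in null Eα against null cells, where 13.6% of all genes rose and 18.1% fell; over the alternatives 0 to 2 rose and 5 to 6 fell. In null against flox cells 5 rose and 4 fell. Podxl, which encodes podocalyxin, an anti-adhesive sialomucin, had group means of 8.84 in flox, 9.15 in null and 7.41 in null Eα cells. It fell by 1.74 ± 0.29 in null Eα against null cells (limma adjusted p = 0.00138). Podxl lies on chromosome 6, whose brighter genes differed from flox by -0.20 in null and by -0.61 in null Eα cells. Over the alternatives its null Eα against null difference ran from -2.18 to -1.33 and was called under each. Prom1, which encodes prominin-1, fell by 1.85 in the same comparison. Cd63, a tetraspanin of late endosomes, fell by 1.69 in null and fell by 2.13 in null Eα cells against flox.

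Bsg, which encodes basigin, an immunoglobulin-superfamily glycoprotein that escorts lactate transporters to the surface, fell by 1.23 in null and fell by 1.33 in null Eα cells against flox. Cxadr, the coxsackievirus and adenovirus receptor of tight junctions, rose by 1.02 in null cells and fell by 0.91 in null Eα against null cells. Prom1, Cd63, Bsg and Cxadr were named after their values were seen.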
